A study of Homo sapiens with 3 samples.

Results

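Interferon-low cells were the top-channel HCT116 cells in which 5 interferon-induced genes, IFI6, IFI27, ISG15, IFIT1 and BST2, together made up less than 0.1% of the cell's UMIs (unique molecular identifiers, each counting 1 captured transcript). They were 2293 of 31266 eligible cells of both top-channel libraries, with 569 in the not stretched library and 1724 in the stretched library. An eligible cell had at least 5000 UMIs, at most 20% of them from mitochondrially encoded genes, and less than 0.05% from APOA1, APOA2, FABP1, TTR and AGR2, genes of hepatic or intestinal cells. The whole series holds 54788 barcodes. The class is a range cut from a measured share, not a cell type, so the levels of the 5 genes in it are a description of how it was chosen.

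HCT116 is a human colorectal carcinoma line, and these cells carried an H2B-GFP histone label. They had been cultured in an organ-on-chip with 2 channels and were collected from each channel with trypsin and sorted for GFP. The 3 groups, with 1 droplet 3′ library each, were the top channel without peristalsis (not stretched), the top channel with peristalsis for 6 days (stretched top, not invaded), and the bottom channel of the stretched condition (invaded cells). All 3 groups were the same labelled line, and no interferon or other agent is named for any of them. With 1 library per group no difference between conditions has a replicate check, no test was made, and all intervals below are 95% intervals for counting error only.

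Type I interferons bind the IFNAR1 and IFNAR2 receptor, whose kinases JAK1 and TYK2 phosphorylate transcription factors, STAT2 among them. With IRF9 these form a complex that binds the interferon-stimulated response element (ISRE) near the start of many genes. The induced genes include antiviral effectors, the signalling proteins STAT2 and IRF7 themselves, and the antigen presentation machinery. Interferon gamma acts at a different element, the gamma-activated site (GAS).

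The start regions of the 5 genes of the rule, and of IFITM1 and B2M, which the rule did not use, are printed to show what these promoters share. Each window runs from 250 bases before to 50 bases after an annotated start, from RefSeq on GRCh38.p14, and reads 5′ to 3′ on the gene's strand. Capitals mark matches to a 10-letter form of the ISRE, GAAA and GAAA with any 2 letters between them, searched on both strands. The windows are chr1:27672143-27672442 on the minus strand for IFI6, chr14:94110486-94110785 on the plus strand for IFI27 (the first of 2 annotated starts), chr1:1013247-1013546 on the plus strand for ISG15, chr10:89392373-89392672 on the plus strand for IFIT1, chr19:17405581-17405880 on the minus strand for BST2, chr11:313790-314089 on the plus strand for IFITM1 and chr15:44711267-44711566 on the plus strand for B2M.

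IFI6: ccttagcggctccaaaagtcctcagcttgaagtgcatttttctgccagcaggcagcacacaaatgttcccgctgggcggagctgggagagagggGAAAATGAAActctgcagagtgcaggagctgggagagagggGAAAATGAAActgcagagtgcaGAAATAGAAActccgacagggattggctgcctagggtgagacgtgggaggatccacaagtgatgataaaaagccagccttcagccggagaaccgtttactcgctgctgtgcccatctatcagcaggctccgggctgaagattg

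IFI27: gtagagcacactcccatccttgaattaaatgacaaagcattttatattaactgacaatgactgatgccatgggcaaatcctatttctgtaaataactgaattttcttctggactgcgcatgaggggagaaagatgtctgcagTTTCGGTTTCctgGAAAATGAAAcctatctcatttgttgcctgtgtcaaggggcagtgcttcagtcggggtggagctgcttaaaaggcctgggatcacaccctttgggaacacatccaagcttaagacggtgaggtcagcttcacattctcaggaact

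ISG15: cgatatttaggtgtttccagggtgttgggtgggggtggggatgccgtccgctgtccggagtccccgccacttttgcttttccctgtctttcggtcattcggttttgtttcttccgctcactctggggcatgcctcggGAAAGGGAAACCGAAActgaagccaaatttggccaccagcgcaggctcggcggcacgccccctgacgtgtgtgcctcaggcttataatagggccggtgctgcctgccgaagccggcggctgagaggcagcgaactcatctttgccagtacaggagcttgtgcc

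IFIT1: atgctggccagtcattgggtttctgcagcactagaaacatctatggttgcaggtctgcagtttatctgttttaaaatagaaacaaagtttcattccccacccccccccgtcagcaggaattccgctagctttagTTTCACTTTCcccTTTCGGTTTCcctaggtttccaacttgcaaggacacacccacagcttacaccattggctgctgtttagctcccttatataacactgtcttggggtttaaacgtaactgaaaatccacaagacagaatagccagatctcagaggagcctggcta

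BST2: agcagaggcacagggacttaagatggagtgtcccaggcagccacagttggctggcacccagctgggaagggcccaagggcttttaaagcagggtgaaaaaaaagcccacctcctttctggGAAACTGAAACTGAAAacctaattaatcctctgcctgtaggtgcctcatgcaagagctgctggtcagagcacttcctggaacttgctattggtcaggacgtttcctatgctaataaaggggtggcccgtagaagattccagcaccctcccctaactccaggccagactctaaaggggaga

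IFITM1: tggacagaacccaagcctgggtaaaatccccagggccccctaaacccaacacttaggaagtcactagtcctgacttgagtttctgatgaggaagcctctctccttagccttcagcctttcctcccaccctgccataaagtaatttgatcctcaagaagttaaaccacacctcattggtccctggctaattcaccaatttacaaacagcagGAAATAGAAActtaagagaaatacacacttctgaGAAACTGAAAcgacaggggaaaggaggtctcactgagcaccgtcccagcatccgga

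B2M: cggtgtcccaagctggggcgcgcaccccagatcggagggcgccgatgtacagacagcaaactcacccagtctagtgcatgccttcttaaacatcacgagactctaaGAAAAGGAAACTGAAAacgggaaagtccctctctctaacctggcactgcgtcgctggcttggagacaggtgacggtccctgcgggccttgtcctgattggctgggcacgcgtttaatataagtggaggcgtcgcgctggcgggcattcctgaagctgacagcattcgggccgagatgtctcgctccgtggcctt

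IFI6 had 3 matches and each of the other 6 windows had 2. The first match began 156 bases before the start in IFI6, 113 in ISG15, 130 in BST2, 144 in B2M and 40 in IFITM1. In ISG15, BST2 and B2M the pair of matches overlapped in letters. Of 49 other interferon-stimulated genes on the lists used below, 39 were matched in the table and 26 of these (66.7%) held the motif, against 1195 of 27305 genes (4.38%) and 1255 of 35116 windows (3.57%) in all. The windows of OAS1, PSMB9 and VIM held no match to these letters, and IRF7 was not matched in the table. The GAS form TTCNNNGAA, which reads the same on both strands, was found in 2 of the 5 genes of the rule and 11 of the 39, against 9.38% of all genes. A match is a run of letters and was not tested as a binding site.

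Interferon-low cells were 3.92% of eligible cells in the not stretched top library (569 of 14498, interval 3.61 to 4.25%) and 10.3% in the stretched top library (1724 of 16768, interval 9.83 to 10.8%). In the bottom library 1506 of 1637 eligible cells were under the same limit, 92.0% (interval 90.6 to 93.3%). The 3 intervals do not overlap, but each comes from 1 library and the spread between chips was not measured. The median 5-gene share over all eligible cells was 0.523% without stretch, 0.359% with stretch and 0.0303% in the bottom library.

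**Figure D1:**
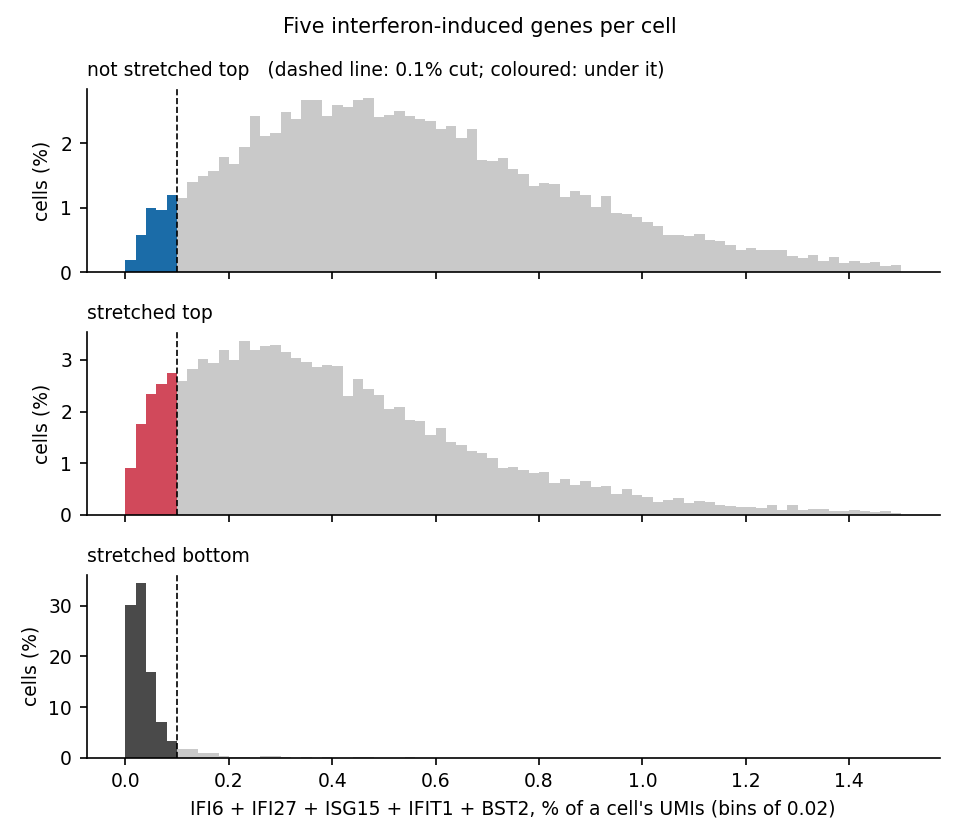
Share of each eligible cell's UMIs that came from the 5 genes of the rule (x axis, percent, in bins of 0.02) against the percent of eligible cells in the bin (y axis), 1 panel per library; the dashed line is the 0.1% limit, cells under it are coloured, and cells beyond the axis are not drawn. In both top libraries the histogram runs through the limit without a gap, and in the bottom library most cells lie under it.

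The limit cut through a continuous distribution. In the not stretched top library 174 cells lay from 0.08% to the limit and 167 from the limit to 0.12%. The stretched top library had 460 and 435 cells in these ranges. Counting error therefore moves cells across the limit. When cells were chosen on one part of their UMIs and measured in the rest, the 620 chosen cells of the not stretched library had 0.0844% of UMIs in the 5 genes against 0.596% in the other cells, and in the stretched library the 1815 chosen cells had 0.0796%. The low level was thus also seen in UMIs the choice did not use.

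Depth did not separate the classes. The median cell had 11776 UMIs in interferon-low and 12038 in other cells of the not stretched top, and 10313.5 and 10277 in the stretched top. Bottom cells were deeper, with a median of 45340. The low share was 4.01% of not stretched cells with 5000 to 10000 UMIs and 3.41% of those with 20000 to 40000, and 10.2% and 6.56% in the stretched top. The median mitochondrial share was lower in interferon-low cells, 8.13% against 9.89% without stretch and 8.73% against 10.5% with stretch. Among cells with at most 10% mitochondrial UMIs, 27 other interferon-stimulated genes were lower by the measure used below, against 26 over all eligible cells. Of the barcodes, 216 were listed in both top libraries, including 5 interferon-low cells of the not stretched and 7 of the stretched library. Another 99 were shared by the not stretched top and the bottom library and 61 by the stretched top and the bottom. Without shared barcodes the low shares were 3.92% and 10.3%.

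The cells carried the epithelial label of the line. EPCAM, the epithelial adhesion molecule, stood at 342 CPM (counts per 1e+06 UMIs, from UMIs summed over a class) in interferon-low and 384 CPM in other cells without stretch, and at 360 and 387 CPM with stretch. The summed level of 7 endothelial, 7 fibroblast and 6 leukocyte markers was at most 8.49 CPM for any list in the top classes, and none of these 20 genes reached 10 CPM. Interferon-low cells were at or under the other cells in all 3 sums of both libraries (endothelial 1.46 against 2.14 CPM without stretch and 1.54 against 1.82 CPM with stretch).

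IFI27, a mitochondrial protein induced by interferon, was the gene of the rule with the largest difference. It stood at 32.6 CPM in interferon-low and 859 CPM in other cells without stretch, at 23.6 and 631 CPM with stretch, and at 18 CPM in the bottom library. IFI6, which acts against apoptosis and viral replication, stood at 118 and 1472 CPM without stretch, 124 and 1182 CPM with stretch, and 50.2 CPM in the bottom. ISG15, a ubiquitin-like modifier, stood at 453 and 3286 CPM, 434 and 2505 CPM, and 393 CPM in the same order.

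IFIT1, which binds foreign RNA, stood at 13.4 CPM in interferon-low and 151 CPM in other cells without stretch, and at 10.9 and 103 CPM with stretch, against 4.62 CPM in the bottom. BST2, the surface protein tetherin that holds budding virus, stood at 9.28 and 182 CPM, 5.56 and 78.6 CPM, and 4.05 CPM. The 5 genes were not absent from interferon-low cells. After thinning every cell to 5000 UMIs, the median interferon-low cell had 3 UMIs of the 5 genes in either top library, against 27 in other cells without stretch and 20 with stretch.

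Genes outside the rule were then compared between the classes. Classes were compared on a log2 scale, as interferon-low over other cells of the same library after adding 1 CPM to each level. Genes needed 10 CPM or more in 1 of the classes in each top library. A gene was counted when it was at least 1.5-fold lower, or higher, in both libraries. Of 8758 such genes, with the 10 genes of the rule left out, 90 were lower (1.03%) and 6 were higher (0.0685%). In the not stretched library by itself 161 of 9333 genes were lower (1.73%) and 170 higher (1.82%), and in the stretched library 100 of 8779 (1.14%) and 11 (0.125%). The median log2 ratio of all genes of both libraries was 0.15 without stretch and 0.09 with stretch, and list values are to be read beside it.

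Of the 49 other interferon-stimulated genes, 33 reached the level needed and 26 of these were lower in both libraries, none higher. The median log2 ratio of the 33 was −1.30 without stretch and −1.19 with stretch. Since a gene can reach the level through the cells in which it is high, the sum over all 49 is the measure that does not depend on it: 1690 CPM in interferon-low against 3725 CPM in other cells without stretch, and 1714 against 3283 CPM with stretch. The sum was 1442 CPM in bottom cells under the limit and 2219 CPM in bottom cells over it, between which 367 of 8530 genes were lower (4.3%) and 269 higher (3.15%) under the limit. These genes are induced with the genes of the rule, so the shared direction says only that the cells were low for the group and not for the 5 alone.

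**Figure D2:**
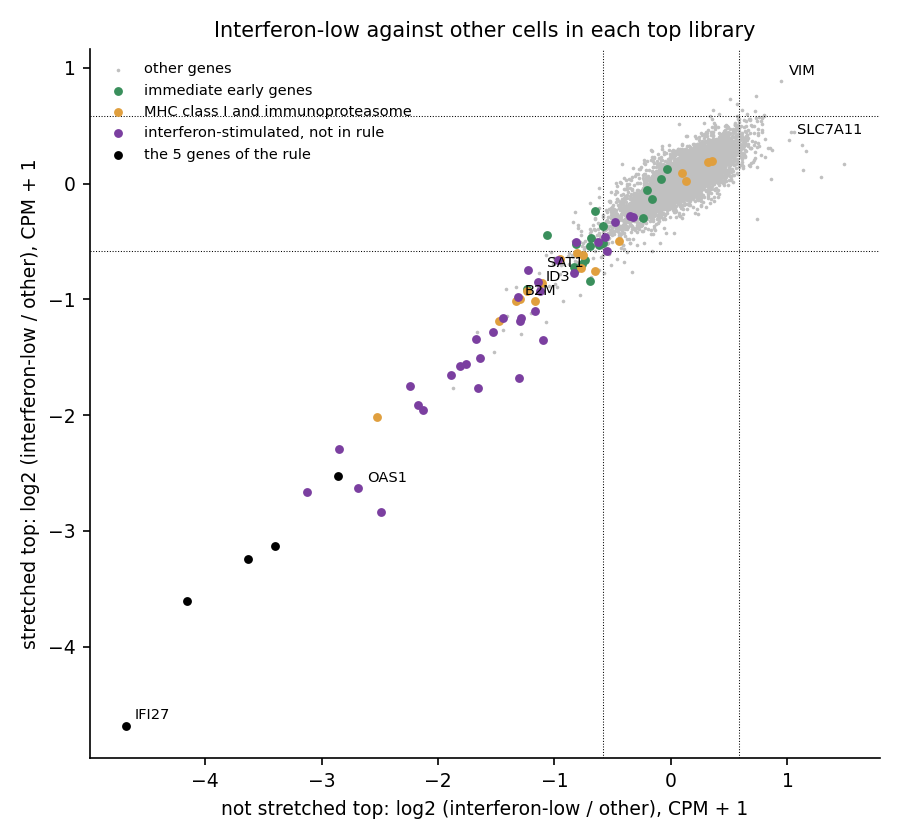
Log2 ratio of CPM plus 1, interferon-low over other cells, in the not stretched top (x axis) and stretched top library (y axis); each point is 1 gene, coloured by list, and dotted lines mark 1.5-fold. The 5 genes of the rule lie at the lower left, with IFI27 lowest, beside interferon-stimulated genes outside the rule such as OAS1 and IFITM1, and VIM lies at the upper right.

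Among antiviral effectors, 13 of the 16 measured members (of 24 listed) were lower. OAS1, which senses double-stranded RNA and activates RNase L (ENSG00000089127, chromosome 12, 112906777 to 112933222, hg38), stood at 3.18 CPM in interferon-low and 25.9 CPM in other cells without stretch, a fold of 8.12 (interval 5.45 to 12.7). With stretch it stood at 2.32 and 19.5 CPM, a fold of 8.42 (6.28 to 11.6), and in the bottom library at 0.34 CPM. IFIT3, a partner of IFIT1, stood at 3.18 and 29.1 CPM without stretch and 3.50 and 21.1 CPM with stretch. The classes were thus separated by a similar factor in both libraries for OAS1. For IFIT3 the log2 ratio was −2.85 without stretch and −2.29 with stretch. The bottom level of 1.07 CPM for IFIT3 was under both interferon-low classes.

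OASL, a relative of OAS1 that enhances RNA sensing, stood at 5.84 and 28.9 CPM without stretch and 4.89 and 21.8 CPM with stretch. SAMD9, which restricts poxviruses, stood at 16.1 and 62.0 CPM and at 16.2 and 53.3 CPM. The remaining lower members were IFIT5, OAS3, EIF2AK2 (the kinase PKR), ISG20, PARP9, PARP14, DDX60, HERC5 and HERC6. ZC3HAV1, SAMHD1 and DDX60L reached the level and did not pass in both libraries, with log2 ratios of −0.48, −0.63 and −0.35 without stretch and −0.33, −0.50 and −0.28 with stretch. MX1, MX2, RSAD2, IFIT2, OAS2, TRIM22, CMPK2 and SAMD9L did not reach it.

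Among membrane proteins and protein modifiers, 13 of the 17 measured members (of 25 listed) were lower. IFITM1, which blocks virus entry at membranes and whose start region is printed above (ENSG00000185885, chromosome 11, 313506 to 315272), stood at 2.12 CPM in interferon-low and 26.2 CPM in other cells without stretch, a fold of 12.3 (interval 7.59 to 21.6). In the stretched library the levels were 2.01 and 18.1 CPM, a fold of 9.02 (6.58 to 12.7). IFITM2 and IFITM3 were also lower, though these 3 genes are close copies and how their reads were divided was not given. IFI44 stood at 3.32 and 23.3 CPM without stretch and 1.29 and 15.3 CPM with stretch.

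USP18 removes ISG15 from proteins and restrains the receptor. It stood at 6.10 and 32.6 CPM without stretch, and at 6.90 and 25.6 CPM with stretch. IFI35 stood at 14.2 and 67.4 CPM and at 13.0 and 51.7 CPM. EPSTI1, PLSCR1, UBE2L6 (the ISG15 conjugating enzyme), DTX3L, SP100, SP110 and LGALS3BP were the other lower members. LY6E, TRIM14, SHISA5 and PHF11 did not pass in both libraries, with log2 ratios from −0.82 to −0.33 without stretch and −0.59 to −0.29 with stretch.

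**Figure D3:**
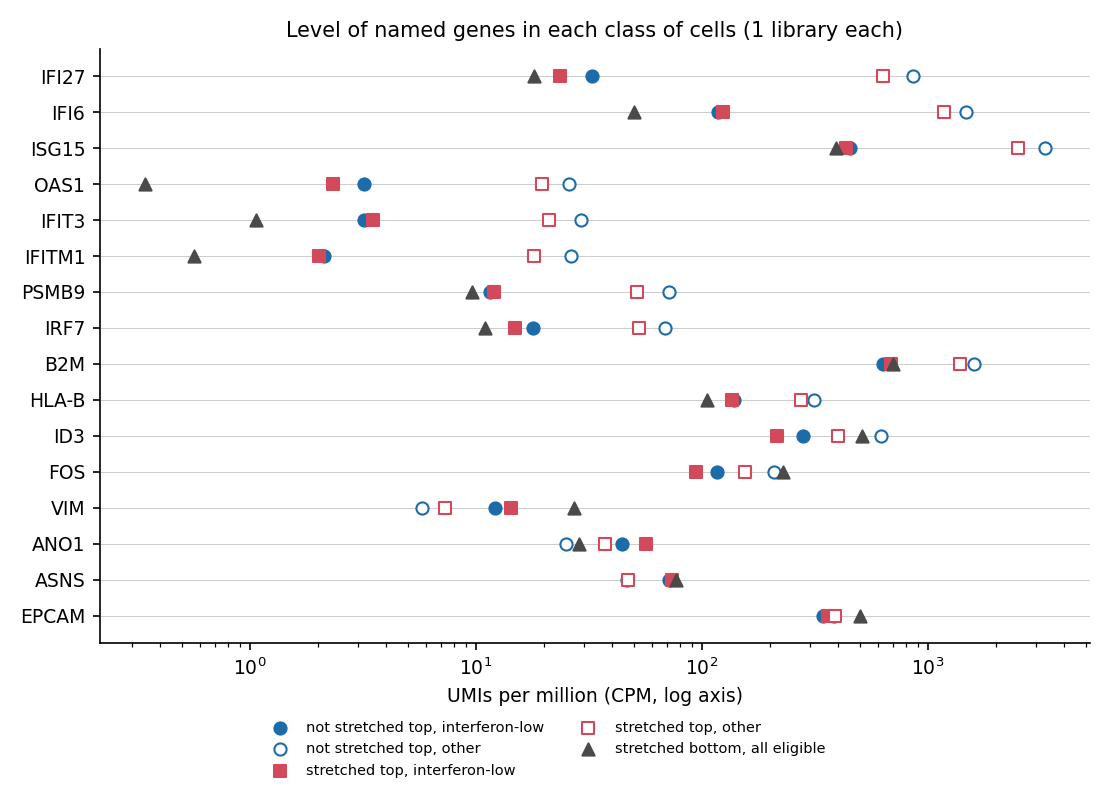
Level of named genes in CPM (x axis, log scale) by gene (y axis) in interferon-low cells (filled) and other cells (open) of the not stretched top (circles) and stretched top (squares) libraries and in all eligible bottom cells (triangles), 1 library each. For OAS1 and IFITM1 both filled symbols lie between 2.01 and 3.18 CPM and both open symbols between 18.1 and 26.2 CPM, while for ID3 and FOS the bottom level lies above the filled symbols.

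Per cell, thinned to 5000 UMIs, the 49 genes gave a median of 8 UMIs in interferon-low and 18 in other cells without stretch, and of 8 and 16 with stretch. The quartiles of the classes lay apart, while their outer ranges overlapped. The upper quartile of interferon-low cells was 11 UMIs in either library. The lower quartile of other cells was 13 UMIs without stretch and 12 with stretch. The share of interferon-low cells at or above the median of the other cells was 3.87% without stretch and 5.63% with stretch. Bottom cells under the limit had a median of 7.

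Few genes of the signalling chain passed. STAT2, which is itself induced by interferon, was lower in both libraries. It stood at 22.2 and 34.5 CPM and at 15.3 and 26.4 CPM, and did not pass when every cell had equal weight or in G1-called cells alone. The receptor chain IFNAR1 had log2 ratios of 0.24 and 0.15, the kinase JAK1 −0.05 and −0.06, and TYK2 −0.01 and 0.08. IFNAR1, JAK1 and TYK2 were all within 1.5-fold in either library. IFNAR2 and IRF9 did not reach the level needed.

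IRF7, which amplifies interferon production, was the only one of 11 measured regulatory factors and inhibitors to be lower in both libraries. It stood at 17.9 and 68.3 CPM without stretch and 14.8 and 52.9 CPM with stretch. IRF1, IRF2 and IRF3 did not pass in both libraries, and neither did SOCS1, an inhibitor of the kinases, with log2 ratios of −0.80 and −0.36. Among 7 measured sensors and adaptors 3 were lower: IFIH1 (the sensor MDA5) at 9.95 and 30.5 CPM and at 9.48 and 27.7 CPM, DDX58 (the sensor RIG-I) at 35.7 and 83.3 CPM and at 30.4 and 66.9 CPM, and TMEM173 (the adaptor STING) at 11.1 and 21.3 CPM and at 8.96 and 15.2 CPM. MAVS and TBK1, which relay the sensors' signal, had log2 ratios between 0.10 and 0.26. IFIH1 in both libraries, and TMEM173 with stretch, reached 10 CPM only in the other cells. Summed over all 13 listed sensors and adaptors, levels were 320 CPM in interferon-low and 438 CPM in other cells without stretch. With stretch the sums were 275 and 369 CPM.

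Transcripts of interferons themselves were nearly undetected. The 10 ligand genes listed summed to 0.53 CPM in interferon-low and 1.91 CPM in other cells without stretch, and to 0.46 and 1.97 CPM with stretch. Of the 10, 9 had no UMI in interferon-low cells without stretch and 8 had none with stretch, at total depths of 7540363 and 19418338 UMIs. Both sums were thus lower in interferon-low cells. They rest on few UMIs, none of the 10 genes reached the level needed, and the difference was not tested.

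Antigen presentation genes were lower in interferon-low cells. Of 13 measured MHC class I and peptide loading genes (15 listed), 9 were lower in both libraries and none higher, with medians of −0.77 without stretch and −0.76 with stretch. Summed over all 15, which needs no minimum level, they stood at 2528 CPM in interferon-low and 4044 CPM in other cells without stretch. With stretch the sums were 2337 and 3455 CPM. B2M, the light chain of every class I molecule (ENSG00000166710, chromosome 15, 44711487 to 44718877), stood at 633 CPM in interferon-low and 1596 CPM in other cells without stretch, a fold of 2.52 (interval 2.45 to 2.59). In the stretched library the levels were 687 and 1389 CPM, a fold of 2.02 (1.99 to 2.06). The bottom library, at 702 CPM, lay beside both interferon-low classes. HLA-B stood at 139 and 314 CPM without stretch and 135 and 273 CPM with stretch, and HLA-C, HLA-E and HLA-F were lower too, with the limit that these genes are near copies of each other.

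TAP1 and TAP2, which pump peptides into the endoplasmic reticulum, and NLRC5, the activator of class I genes, were lower as well. NLRC5 stood at 5.30 and 14.5 CPM without stretch and 5.15 and 11.2 CPM with stretch, so it reached the level needed only through the other cells. CALR, CANX and PDIA3, general chaperones that also serve class I folding, had log2 ratios between 0.02 and 0.35. The difference therefore covered the class I chains, their transporter and their activator, while these chaperones were not lower.

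Of 4 measured immunoproteasome genes 3 were lower. PSMB9, a catalytic subunit that replaces a constitutive one (ENSG00000240065, chromosome 6, 32844136 to 32859585), stood at 11.5 and 71.3 CPM without stretch, a fold of 6.18 (interval 5.00 to 7.72). With stretch it stood at 12.1 and 51.8 CPM, a fold of 4.30 (3.77 to 4.91), and in the bottom library at 9.64 CPM. The activator subunits PSME1 and PSME2 were lower as well. Summed over all 5 listed genes, levels were 313 CPM in interferon-low and 607 CPM in other cells without stretch, and 345 and 556 CPM with stretch. PSMB10, another catalytic subunit, had log2 ratios of 0.32 and 0.19, and stood at 15.5 and 12.3 CPM without stretch, 14.2 and 12.3 CPM with stretch and 41.5 CPM in the bottom. No member of the NF-kB and inflammatory list (9 measured of 20) passed in both libraries, with medians of −0.10 and −0.12.

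Immediate early genes, switched on within minutes of a stimulus and many of them transcription factors, were lower in part. Of 19 measured members (22 listed) 6 were lower in both libraries, FOS, JUN, JUNB, EGR1, NR4A1 and CYR61, with list medians of −0.69 and −0.51. Summed over all 22, levels were 1891 CPM in interferon-low and 2662 CPM in other cells without stretch, and 1747 and 2243 CPM with stretch. FOS stood at 117 and 209 CPM without stretch, at 94.0 and 155 CPM with stretch, and at 229 CPM in the bottom library, above both classes of either top library. EGR1 stood at 61.9 and 111 CPM without stretch, 49.7 and 84.0 CPM with stretch, and 49.2 CPM in the bottom. The difference varied with the cycle call described below: among G1-called cells 1 member was lower in both libraries (medians −0.24 and −0.24), against 10 among S-called and 8 among G2/M-called cells.

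Beyond the lists, further lower genes were named by size of ratio. C19orf66, an inhibitor of viral translation, stood at 15.4 and 51.0 CPM without stretch and 15.2 and 38.3 CPM with stretch. PARP12 stood at 13.8 and 36.1 CPM and at 14.7 and 28.2 CPM, and TRIM69 at 5.17 and 11.7 CPM and at 5.46 and 10.9 CPM. These 3 are known as antiviral factors.

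SAT1, which acetylates polyamines (ENSG00000130066, chromosome X, 23783173 to 23786226), stood at 854 CPM in interferon-low and 1876 CPM in other cells without stretch, a fold of 2.20 (interval 2.14 to 2.25). With stretch it stood at 754 and 1289 CPM, a fold of 1.71 (1.68 to 1.74), and in the bottom library at 201 CPM. ID3, an inhibitor of DNA-binding factors induced by BMP signals, stood at 280 and 620 CPM without stretch and 215 and 400 CPM with stretch, but at 510 CPM in the bottom library. Among G1-called cells the mean log2 ratio of SAT1 was −0.49 and it did not pass. SAT1 was thus lowest in the bottom cells, whereas ID3 in the bottom lay between both classes of the not stretched top and above both of the stretched top.

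FXYD3, a regulator of the sodium pump, stood at 13.0 and 36.1 CPM and at 15.6 and 35.7 CPM. CLIC3 stood at 22.7 and 58.5 CPM and at 28.1 and 58.3 CPM, KRT23 at 15.5 and 30.3 CPM and at 13.6 and 28.4 CPM. TSPAN1, CITED1 and PRF1 were also lower. CITED1 lost its call among S-called and among G2/M-called cells and among cells with at most 10% mitochondrial UMIs.

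The epithelial list as a whole did not reach 1.5-fold. None of its 16 measured members passed in both libraries, and its median was −0.26 in either library. KRT19 stood at 1184 and 1643 CPM without stretch and 1184 and 1538 CPM with stretch, and CLDN4 at 168 and 244 CPM and at 154 and 220 CPM. Among G1-called cells the epithelial medians were −0.06 and −0.12.

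Only 6 genes were higher in interferon-low cells in both libraries, VIM, GPAT3, ANO1, XRCC2, ASNS and MT-ND6. With TMM scaling, or with scaling by the median of ratios, 1 gene remained, and VIM passed under both. VIM, the intermediate filament protein vimentin (ENSG00000026025, chromosome 10, 17228259 to 17237593), stood at 12.1 CPM in interferon-low and 5.79 CPM in other cells without stretch, a fold of 2.08 (interval 1.66 to 2.58). With stretch it stood at 14.3 and 7.31 CPM, a fold of 1.96 (1.71 to 2.23), and in the bottom library at 27.1 CPM. Both interferon-low classes were above both other classes of the top libraries. The bottom level rested on few cells: without the 1% of cells of each class with the most VIM UMIs it was 8.62 CPM under and 1.73 CPM over the limit, against 8.06 and 10.2 CPM in the interferon-low classes without and with stretch.

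Few cells carried VIM. A VIM UMI was found in 54 interferon-low cells without stretch (9.49%, interval 7.21 to 12.2%) against 6.23% of other cells (5.84 to 6.65%), and in 182 with stretch (10.6%, 9.15 to 12.1%) against 6.47% (6.09 to 6.88%). Median depths were those given above, and the share that free RNA gives was not measured. Without the 1% of cells of each class with the most VIM UMIs the log2 ratios were 0.89 and 0.91. The cells left out held 34.1% of the VIM UMIs of interferon-low cells without stretch and 29.5% with stretch. In other cells they held 33.7% and 32.9%. Without them the not stretched levels were 8.06 and 3.89 CPM, both under the 10 CPM needed, so the ratio held at levels too low to be counted. Among G1-called cells alone the mean log2 ratio over both libraries was 0.49 and VIM did not pass. ZEB1, a repressor of epithelial genes, had log2 ratios of 0.59 and 0.36, and VIM was the only one of 11 measured mesenchymal and partial EMT genes to pass.

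ANO1, a calcium-activated chloride channel, stood at 44.0 and 24.9 CPM without stretch, at 56.3 and 37.1 CPM with stretch, and at 28.5 CPM in the bottom. ASNS, asparagine synthetase, stood at 71.4 and 46.3 CPM and at 73.7 and 47.2 CPM. GPAT3, a glycerolipid enzyme, stood at 29.2 and 17.2 CPM and at 23.1 and 13.3 CPM, and XRCC2, a recombination repair factor, at 29.7 and 18.6 CPM and at 24.5 and 15.8 CPM. MT-ND6, the complex I subunit encoded on the other mitochondrial strand, stood at 381 and 231 CPM and at 399 and 258 CPM, while MT-CYB stood at 6904 and 10005 CPM and at 7809 and 10568 CPM. These 5 genes had folds between 1.5 and 1.8 and did not pass in both libraries under TMM scaling. SLC7A11, the cystine transporter, passed without stretch alone (73.3 and 35.9 CPM, against 50.5 and 38.7 CPM with stretch).

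Over all phases, the lists of other programmes given here had no member past the threshold in both libraries. The hypoxia list (18 measured) had medians of 0.02 and −0.01. Among G1-called cells (21 measured) they were 0.46 and 0.23 with 2 members higher in both libraries, and among G2/M-called cells −0.02 and −0.07 with 2 members lower. NDRG1 of this list stood at 168 and 113 CPM and at 178 and 133 CPM. The p53 target list (20 measured) had medians of −0.04 and 0.06, with CDKN1A at 72.7 and 64.0 CPM and at 87.2 and 72.5 CPM. Heat shock genes (13 measured) had medians of 0.31 and 0.20, and among G1-called cells 0.02 and 0.01. HSPH1 stood at 104 and 64.1 CPM and at 135 and 94.5 CPM. Genes of DNA methylation and retroelement silencing (15 measured) had medians of 0.30 and 0.17, and none passed, with DNMT1 at log2 ratios of 0.32 and 0.28.

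Fewer interferon-low than other cells were called G1. After thinning to 5000 UMIs, 36.7% of interferon-low cells (interval 32.8 to 40.8%) and 51.3% of other cells (50.4 to 52.1%) were G1-called without stretch, and 39.7% (37.4 to 42.1%) and 48.7% (47.9 to 49.5%) with stretch. S calls were 22.5% against 16.7% and 22.6% against 15%. G2/M calls were 40.8% against 32.1% without stretch and 37.7% against 36.3% with stretch, so the second difference was within overlapping intervals. Unthinned, the G1 shares were 36.2% and 50%, and 37.9% and 47.2%. The S phase gene list, with 41 measured members of which none passed, had medians of 0.39 and 0.33. Bottom cells under the limit were 22.0% G1-called and 55.5% G2/M-called. Phase calls read transcripts only, and cycling itself was not measured.

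**Figure D4:**
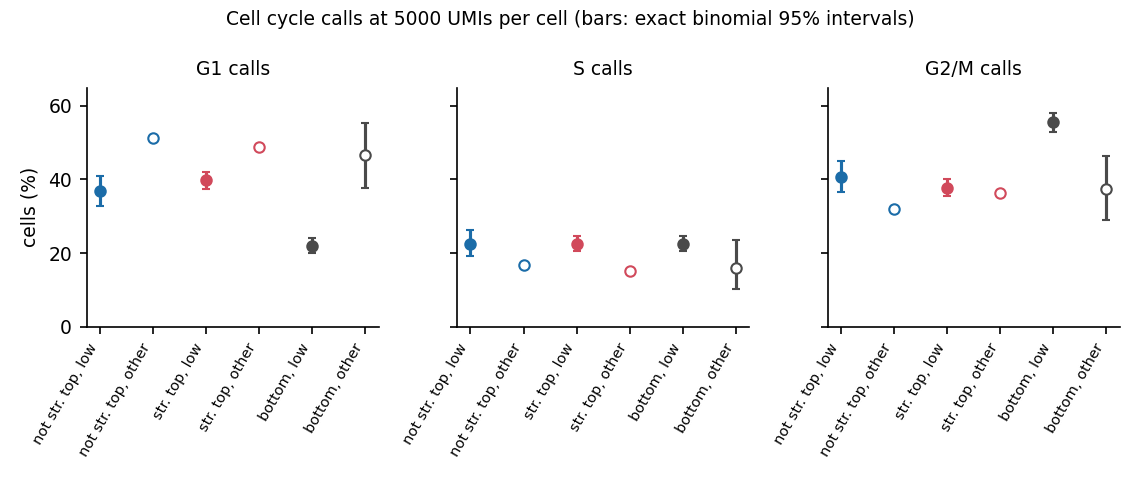
Percent of cells called G1, S or G2/M after thinning to 5000 UMIs (y axis, 1 panel per phase) in interferon-low (filled) and other cells (open) of each library (x axis); bars are exact binomial 95% intervals and are smaller than the symbol where not seen. G1 calls were 36.7% and 39.7% in the interferon-low classes against 51.3% and 48.7% in the other cells.

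The interferon-stimulated genes were lower within each phase call. Within G1-called, S-called and G2/M-called cells alone, 28, 26 and 27 of the other interferon-stimulated genes were lower in both libraries. The MHC class I medians among G1-called cells were −0.75 and −0.72. Beside these stand the immediate early, heat shock and epithelial medians, which were nearer to the median of all genes in G1-called cells.

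Levels of the other interferon-stimulated genes ran along the 5-gene share, with no step at the limit. In cells under 0.05%, from 0.05 to 0.1%, from 0.1 to 0.2% and at 0.8% or more, the 49 other interferon-stimulated genes summed to 1478, 1785, 2261 and 4989 CPM without stretch, and to 1512, 1825, 2263 and 4980 CPM with stretch. At the same share of the 5 genes the 2 libraries thus had nearly the same level of the others. PSMB9 went from 7.25 CPM in the lowest range to 130 CPM in the highest without stretch, and from 9.75 to 125 CPM with stretch. ID3 went from 235 to 815 CPM and from 190 to 593 CPM. In the ranges up to 0.2%, SAT1 stood at 829, 866 and 1286 CPM without stretch, and G1 calls were 34.7, 37.6 and 47.2%. Both thus rose more across the limit than below it. With stretch SAT1 stood at 600, 838 and 1026 CPM, and G1 calls were 36.7, 41.4 and 45.8%.

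VIM ran the other way, from 14.5 CPM in the lowest range (170 cells) to 4.64 CPM in the highest (3213 cells) without stretch, and from 21.0 CPM (626 cells) to 4.96 CPM (1791 cells) with stretch. ANO1 went from 49.9 to 19.1 CPM and from 61.7 to 29.7 CPM, and MT-ND6 from 434 to 161 CPM and from 423 to 188 CPM. The ranges were cut by the measure that chose the cells, so these values describe the range and were given no test.

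**Figure D5:**
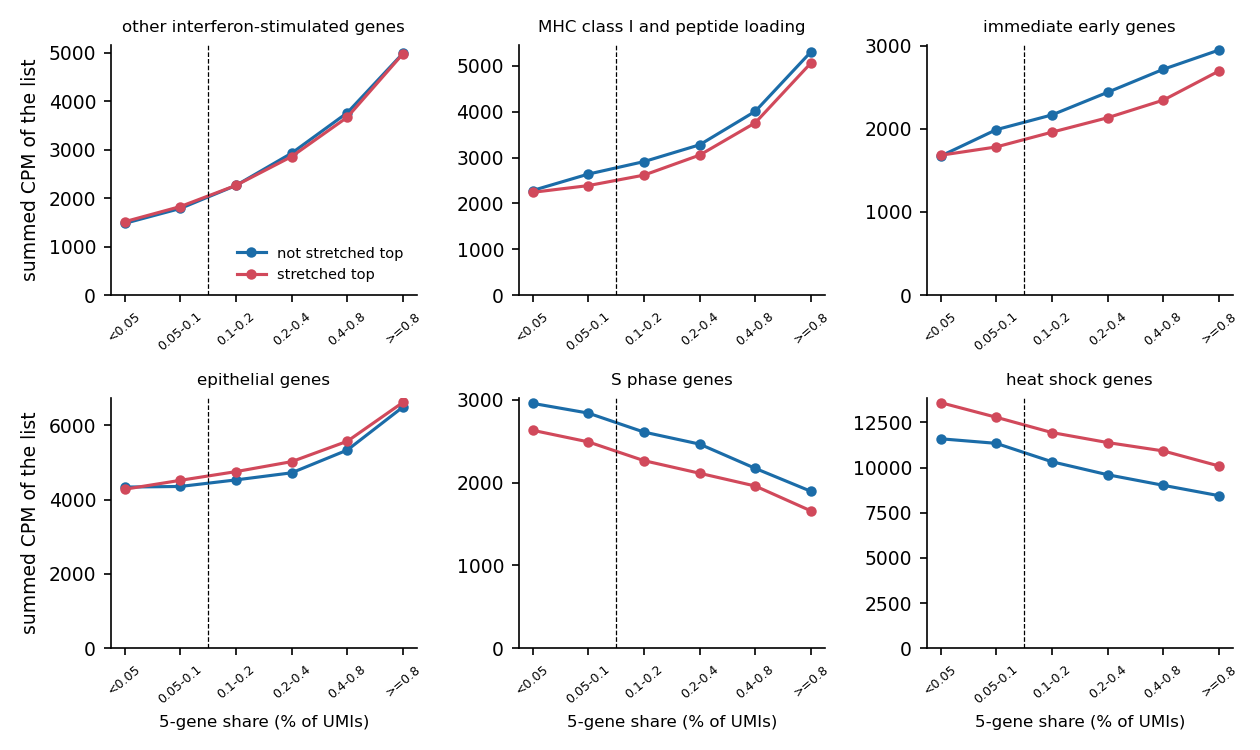
Summed level of 6 gene lists in CPM (y axis, from 0) in cells grouped by the share of UMIs from the 5 genes of the rule (x axis, percent), for the not stretched top (blue) and stretched top (red) libraries; the dashed line marks the 0.1% limit. Other interferon-stimulated genes go from 1478 to 4989 CPM without stretch and from 1512 to 4980 CPM with stretch, and S phase and heat shock genes go down along the axis.

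By genes outside the interferon lists, interferon-low cells were partly grouped and partly mixed with the rest. Each cell's 15 nearest cells in its library were found from variable genes, with the genes of the interferon lists and of the rule left out. Antiviral genes outside these lists, such as C19orf66 and PARP12, were not left out. Among the neighbours of interferon-low cells 12.4% were interferon-low without stretch, against 2.66% among neighbours of other cells and 3.92% of the library. With stretch the shares were 20.6%, 7.33% and 10.3%. No neighbour was interferon-low for 30.6% of these cells without stretch and 14.0% with stretch, and most neighbours were interferon-low for 1.41% and 7.37%. Interferon-low cells thus lay near each other more often than their share of the library, and few were surrounded by their own class.

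Between conditions, the rule caps the 5 genes at the same level in both top libraries, so nothing is read from their similarity. Of 9211 genes, 414 were lower (4.49%) and 22 higher (0.239%) in stretched than in not stretched interferon-low cells, about a median of all genes of −0.22. With TMM scaling 69 were lower and 176 higher, so the split between directions was set by the scaling. In other cells 61 of 9049 were lower (0.674%) and 15 higher (0.166%), about a median of −0.16, and 13 and 69 with TMM scaling. The not stretched class held 7540363 UMIs and the stretched class 19418338.

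Of the other interferon-stimulated genes, 3 were lower and none higher in stretched than in not stretched interferon-low cells, with a median of −0.08. In other cells 1 was lower and none higher, with a median of −0.29. B2M had a log2 ratio of 0.12 between the interferon-low classes and −0.20 between the other classes, and PSMB9 0.06 and −0.45. CITED1 had 0.85 and 0.86, PRF1 0.88 and 0.62, and S100A4, a calcium-binding protein, 0.59 and 0.34. A difference between these columns was not tested.

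Against the bottom library, each class of the stretched top is given beside the other because both comparisons use the same bottom cells. Of 8820 genes, 964 were lower (10.9%) and 446 higher (5.06%) in bottom than in interferon-low stretched top cells. With TMM scaling the split was 664 lower and 753 higher. Against other stretched top cells 886 of 8804 were lower (10.1%) and 702 higher (7.97%), and 653 and 924 in thinned cells. Of the other interferon-stimulated genes 16 were lower in the bottom than in interferon-low cells and 30 lower than in other cells, none higher in either, with medians of −0.49 and −1.93. For MHC class I genes the medians were −0.10 and −0.92. The rule chose the interferon-low top cells for a low level, so nothing is read from their nearness to the bottom cells in these genes. Bottom cells were lower still in OAS1 (−1.31), IFIH1 (−1.13) and DDX58 (−1.15) against the interferon-low cells.

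On a list of 15 genes higher in the bottom library, which was chosen from earlier results of these data, 12 were measured in the top classes and VIM alone was higher in interferon-low than other top cells. The median of the list was 0.09 and 0.04 there. Its direction in the bottom library was fixed by the choice of genes. DKK1, a secreted WNT inhibitor, stood at 108 CPM in interferon-low stretched top cells, 154 CPM in other stretched top cells and 539 CPM in the bottom. MT2A, a metallothionein, stood at 2600, 2610 and 4405 CPM in that order, and HMOX1, heme oxygenase, at 35.6, 27.4 and 60.8 CPM.

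Of 15 genes lower in the bottom library, a list chosen in the same way, all 15 were measured, and 2 (NLRC5 and ALDOC) were lower in interferon-low than in other top cells. NDRG1 stood at 178, 133 and 48.7 CPM in interferon-low stretched top, other stretched top and bottom cells. ALDOC, an aldolase, stood at 32.3, 52.6 and 12.8 CPM. The immediate early list's median was 0.65 in bottom over interferon-low cells, with 11 of them higher and 1 lower. The interferon-low top cells thus differed from the bottom library by a median of −0.10 in MHC class I genes, lay between it and the other top cells in ALDOC, and lay further from it than the other top cells in FOS, ID3 and DKK1.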

How the data were processed

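Single-cell RNA was measured in 3 libraries, 1 per group. The authors deposited unnormalised UMI counts for 19912 features and every listed barcode. Cell Ranger 7.0.0 made them per the file headers, on hg38 per the submitters' processing notes. Which annotation it used is not given in the sources used here. The interferon-low cells, the gene lists and the tests were chosen with earlier results of these data known.

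UMIs were summed per class and library and divided by the class total to give CPM. Before log2 ratios were taken 1 CPM was added to each level. Genes under 10 CPM in both classes were left out, and a difference was counted from 1.5-fold. Fold intervals are exact conditional binomial and share intervals Clopper-Pearson. They cover counting error only. Some genes of the lists are not reported here. No doublets were removed. Named genes were the 5 genes of the rule, from each list 2 to 4 members by size of mean ratio, up to 12 further genes per direction, and EPCAM, DKK1, VIM, NDRG1 and CDKN1A.

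Cells were thinned to 5000 UMIs for per-cell counts and for phases, called with scanpy 1.11.5. Neighbours used 2000 variable genes and 30 components after removal of the genes of the interferon lists and of the rule. Lists came to 31. Gene coordinates came from GENCODE on the same build, and start regions from RefSeq (GRCh38.p14). R 4.3.3 with edgeR 4.0.16 gave the TMM factors. Other steps ran in Python 3.11.15 (scikit-learn 1.9.0, matplotlib 3.10.9, pandas 2.3.3, scipy 1.17.1 and numpy 2.4.6). Tested on simulated data for interferon-low against other cells in both top libraries (8622 genes), the ratio step passed 68 of 70 genes changed 2-fold, 70 of 70 changed 4-fold, 0 of 60 changed 1.25-fold and 0 of 8423 unchanged genes. The simulated sums held counting error only, without variation between cells. They therefore give no rate of false calls for the real cells.

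Alternatives changed the limit, the depth and mitochondrial limits, the scaling, the weights of cells, the CPM added, the minimum level, the fold, the comparison cells and the number of neighbours. Added after the data were seen were cells of each phase call alone, barcodes not shared between libraries, a limit relative to each library's median, and leaving out the cells with the most UMIs of a gene.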

Additional observations from a re-analysis of the deposited data

Results flagged for a closer look

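VIM had opposite directions in the top and bottom channels. In both top libraries it was higher in cells under the interferon limit, with log2 ratios of 0.94 and 0.88, while in the stretched bottom library the log2 ratio of cells under to cells over the limit was −2.02 (21.7 against 91.2 CPM). The difference between channels was not tested, and the bottom cells over the limit number 131. A VIM UMI was found in 10 of these 131 cells (7.63%, interval 3.72 to 13.6%), and 2 cells held 98.1% of their VIM UMIs, against 22.5% of the 1506 cells under the limit (interval 20.4 to 24.7%). Without the 1% of cells of each class with the most VIM UMIs the bottom log2 ratio was 1.82, in the direction of the top libraries.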

How the results depend on the processing

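None of the 44 named genes past 1.5-fold in both top libraries turned the direction of its mean ratio between interferon-low and other top cells. Named genes that did not pass were not checked in this way. Some list medians turned in G1-called cells without stretch, from 0.39 to −0.09 for S phase genes and from −0.08 to 0.13 for mitochondrially encoded genes. In the bottom library the VIM ratio between cells under and over the limit turned, from −2.02 to 1.82 without the cells holding the most VIM. The balance of lower and higher genes turned with the scaling in both stretched against not stretched comparisons and in bottom against interferon-low cells, and in thinned cells in bottom against other top cells (values below). Of 44 named genes past 1.5-fold in both top libraries, 23 stayed past it in every alternative other than the 2-fold threshold and the 50 CPM minimum. No paired analysis was possible because each group had 1 library. The low shares of the not stretched top, stretched top and bottom library were 1.17, 3.73 and 75.3% at a limit of 0.05% of UMIs and 7.24, 17.1 and 96.0% at 0.15%. In the not stretched and stretched top they were 4.77 and 13.8% with at most 10% mitochondrial UMIs, and 5.20 and 11.2% without the limit on hepatic and intestinal genes. Thinned, the stretched top had 9.55% and the bottom 87.8%. With the limit set relative to each library's own median they had 6.43 and 4.34%, so the bottom was then under the stretched top.

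The 6 genes higher in both top libraries became 25 at the 0.05% limit, 3 at 0.15%, 1 with TMM, 1 with the median of ratios, 10 with equal cell weights, 15 thinned, 11 with 0.1 CPM added, 3 with 5 CPM, 14 at a minimum of 1 CPM, 2 at 50 CPM, 0 at 2-fold, 21 against cells at 0.2% or more, 29 in G1-called and 10 in S-called cells. The 90 lower genes became 34 at 50 CPM and 33 at 2-fold, and the 26 lower interferon-stimulated genes became 10 at 50 CPM. Their median without stretch was −1.64 at the 0.05% limit and −1.62 in G2/M-called cells. Among S-called cells CITED1, HLA-F, KRT23, PRF1, PSME1, TRIM69, ANO1, ASNS, GPAT3 and XRCC2 no longer passed, and among G1-called cells ALDOC, EGR1, FOS, NR4A1, SAT1, STAT2, TMEM173, TSPAN1, ANO1, GPAT3, MT-ND6, VIM and XRCC2 did not.

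Bottom against interferon-low stretched top cells gave 753 higher and 664 lower with TMM, 775 and 654 with the median of ratios and 102 and 223 at 2-fold. Against other stretched top cells 2-fold gave 115 higher and 268 lower, and thinned cells 924 and 653. Stretched against not stretched interferon-low cells gave 69 lower and 176 higher with TMM, 66 and 188 with the median of ratios, 1003 and 38 thinned, and 31 and 0 at 2-fold. Other cells gave 13 and 69, 13 and 70, and 6 and 0 at 2-fold. For these counts the cause was not tested. G1 calls of interferon-low and other cells with at least 10000 UMIs were 21.8 and 39.7% without stretch and 24.2 and 34.1% with stretch. Unthinned other cells had 50.004 and 47.2%, and interferon-low stretched cells at the 0.05% limit 36.7%. With interferon genes kept, 20.6% without stretch and 35.5% with stretch of the neighbours were interferon-low. The classes of fewest UMIs were the 131 bottom cells over the limit (5880407) and the 569 interferon-low cells without stretch (7540363).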

Other observations

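The 131 bottom cells over the interferon limit, 8.0% of eligible bottom cells, were set apart by the same limit as the other top cells. Their level was lower, with a median 5-gene share of 0.149%. Other top cells had 0.538% without stretch and 0.395% with stretch. Median depth was 44813 UMIs against 45390.5 in bottom cells under the limit. In these cells 367 of 8530 genes were at least 1.5-fold higher than in bottom cells under the limit (4.3%) and 269 lower (3.15%). Over both parts of the interferon-stimulated lists the summed level was 2219 CPM in them and 1442 CPM under the limit. IFI27 stood at 159 and 6.15 CPM, and ISG15 at 1581 and 293 CPM.

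Epithelial genes differed in the same cells, with a summed level of 9978 CPM over and 5184 CPM under the limit, against 5348 and 4434 CPM in the other and interferon-low cells of the stretched top. KRT19 stood at 2997 CPM over and 1406 CPM under the limit. FXYD3 stood at 71.3 and 13.5 CPM and CLIC3 at 167 and 38.7 CPM. All 3 were also lower in interferon-low than in other cells of either top library. G1 calls were 46.6% over and 22.0% under the limit, and their part in these values was not tested.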
